A study of Mus musculus with 18 samples.

Results

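The genes described here are 9 costimulatory receptors of T cells: Cd28, Icos, Cd2, Cd226, Cd27, Tnfrsf4, Tnfrsf9, Tnfrsf18 and Tnfrsf1b. They were taken by symbol from count files that list 43280 genes, and all 9 were among the 13922 genes that passed the filter on low counts. Their transcripts were compared in 4 groups of sorted mouse T-lineage cells, 18 RNA sequencing libraries in all. The iRTE group (n = 5) held CD8+ T cells differentiated in vitro from induced pluripotent stem cells that the labels call Pmel iPSC. The labels do not spell out iRTE. By elimination it is the group made in a 3D thymic culture, although the growth protocol of every sample names OP9-DL1, a stromal cell line that carries a Notch ligand. Artificial CD8 cells (n = 5) were CD8+ T cells made from the same stem cell source on OP9-DL1, and CD4+CD8+ cells (n = 3) were double-positive T cells made on it from that source. Splenic CD8 cells (n = 5) were naive CD8+ T cells taken directly from the spleens of transgenic mice, whose descriptions also carry the name pmel. Sorting used CD45, the T-cell receptor, CD8 and CD4, and cells with NK1.1, the gamma-delta receptor or CD11c were gated out. The labels give neither the age nor the sex of the mice, and they do not say whether replicates came from separate cultures, stem cell clones or animals. The p-values therefore measure only the spread between these libraries, which may be technical.

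A naive T cell needs a second signal beside its antigen receptor, and costimulatory receptors deliver it. CD28 and its relative ICOS bind ligands of the B7 family and recruit phosphoinositide 3-kinase, CD2 binds an adhesion partner and brings signalling proteins to the contact site, and CD226 binds nectin-like proteins. CD27, OX40, 4-1BB, GITR and TNFR2 are receptors of the tumour necrosis factor (TNF) receptor superfamily that bind TRAF adaptors and drive NF-kappaB and survival genes. CD28, CD27 and CD2 are known for being present on resting naive cells, whereas ICOS, OX40 and 4-1BB are known for being induced on activation. OX40, 4-1BB, GITR and TNFR2 are the proteins of Tnfrsf4, Tnfrsf9, Tnfrsf18 and Tnfrsf1b.

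Promoter sequences of RefSeq on mouse build GRCm38.p6, 250 bases before to 50 bases after a start of transcription, were used for 5 of the 9 genes. The 4 shown are those of the TNF receptor genes on chromosome 4. Tnfrsf18 and Tnfrsf1b were the pair called higher in iRTE than in every other group. Tnfrsf9 divided the iRTE libraries, and Tnfrsf4 is the neighbour of Tnfrsf18. Capitals mark matches, on either strand, to 4 motifs: AP-1 (TGANTCA), a pair of NF-kappaB half-sites (GGG and CC with 5 bases between them), RUNX (TGTGGT) and ETS (CCGGAA).
Tnfrsf18, chr4:156026072-156026371, plus strand: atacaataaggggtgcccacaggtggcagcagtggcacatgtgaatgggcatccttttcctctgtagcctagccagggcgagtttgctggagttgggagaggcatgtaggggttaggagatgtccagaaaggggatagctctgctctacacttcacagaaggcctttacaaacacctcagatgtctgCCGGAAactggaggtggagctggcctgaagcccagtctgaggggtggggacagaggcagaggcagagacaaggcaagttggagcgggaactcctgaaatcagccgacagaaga
Tnfrsf4, chr4:156013445-156013744, plus strand: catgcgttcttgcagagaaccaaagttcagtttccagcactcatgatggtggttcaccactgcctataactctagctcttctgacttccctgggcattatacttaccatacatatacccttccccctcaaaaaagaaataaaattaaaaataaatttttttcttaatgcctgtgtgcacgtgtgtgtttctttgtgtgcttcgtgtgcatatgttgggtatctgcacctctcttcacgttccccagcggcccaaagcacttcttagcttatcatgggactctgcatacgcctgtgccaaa
Tnfrsf9, chr4:150927749-150928048, plus strand: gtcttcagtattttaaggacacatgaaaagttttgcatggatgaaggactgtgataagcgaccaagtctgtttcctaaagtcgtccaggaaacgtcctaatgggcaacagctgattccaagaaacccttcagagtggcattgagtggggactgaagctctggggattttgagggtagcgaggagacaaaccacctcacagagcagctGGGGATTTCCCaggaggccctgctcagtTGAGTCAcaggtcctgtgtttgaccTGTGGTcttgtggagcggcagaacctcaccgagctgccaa
Tnfrsf1b, chr4:145246821-145247120, minus strand: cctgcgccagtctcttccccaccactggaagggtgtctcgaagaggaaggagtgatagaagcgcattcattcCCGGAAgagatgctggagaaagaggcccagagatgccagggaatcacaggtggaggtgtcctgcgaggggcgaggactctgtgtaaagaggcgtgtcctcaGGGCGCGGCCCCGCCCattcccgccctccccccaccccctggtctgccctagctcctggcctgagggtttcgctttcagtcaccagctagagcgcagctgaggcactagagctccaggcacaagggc
The Tnfrsf9 window held an AP-1 match whose first base lies at -15 from the start, a RUNX match at 10 and overlapping matches to the NF-kappaB pair. That is the second of 2 RefSeq starts of Tnfrsf9, and the window of the first held none of the 4 motifs. Tnfrsf18 held 1 ETS match at -63, and Tnfrsf1b held 1 at -178 and 3 overlapping matches to the NF-kappaB pair. Tnfrsf4 held none of the 4. The background was 27025 RefSeq promoter windows of the same length, 1 per gene (the first listed), whereas 2 windows were searched for Tnfrsf9. Of the background windows 7.93% held the AP-1 letters, 50.4% the NF-kappaB pair, 16.9% the RUNX letters and 15.2% the ETS letters. A match describes letters only, and no binding was measured.

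Total counts ran from 11132768 to 19305751 per library, and values are given as CPM, a gene's count scaled by the total count of its library. At these depths 3 counts, the limit that a count of 0 allows, equal 0.155 to 0.269 CPM, which covers counting error only. The T-cell markers Cd3d, Cd3e, Cd3g, Lck, Cd8a and Cd8b1 were at 443 CPM or more in every library. Cd5 and Cd6, of the same list, averaged 7.79 and 4.51 CPM in iRTE, against 104 and 279 CPM in splenic CD8. Cd4 had no count in iRTE, averaged 4.48 CPM in Artificial CD8 and 225 CPM in CD4+CD8+, and was at most 0.170 CPM in splenic CD8 libraries. The summed CD4 helper and regulatory T markers (9 genes) ran from 241 to 484 CPM in iRTE, 849 to 1023 CPM in Artificial CD8, 575 to 674 CPM in CD4+CD8+ and 48.7 to 59.6 CPM in splenic CD8 libraries. The 8 measured gamma-delta T markers summed to 3953 to 7046 CPM in iRTE, 4390 to 4830 CPM in Artificial CD8 and 3472 to 3757 CPM in CD4+CD8+ libraries, against 226 to 249.5 CPM in splenic CD8 libraries. The 9 B-cell markers summed to 1200.4 to 1643 CPM in iRTE, 789 to 913 CPM in Artificial CD8, 980.0 to 1157 CPM in CD4+CD8+ and 810.5 to 978 CPM in splenic CD8 libraries. Most of that was Ighm, which averaged 1346 CPM in iRTE and 821 CPM in splenic CD8, and Ms4a1 had no count in any group but splenic CD8. The 11 natural killer markers summed to 559.8 to 1208 CPM in iRTE, 755 to 943 CPM in Artificial CD8, 616 to 897 CPM in CD4+CD8+ and 597 to 681 CPM in splenic CD8 libraries. Most of each sum was Nkg7, which averaged 933 CPM in iRTE, 768 CPM in Artificial CD8, 643 CPM in CD4+CD8+ and 534 CPM in splenic CD8. Ncr1 had no count in iRTE or CD4+CD8+ and averaged 0.0800 CPM in Artificial CD8 and 0.210 CPM in splenic CD8. The 9 stromal markers summed to 0.861 to 3.85 CPM in iRTE, 17.5 to 26.8 CPM in Artificial CD8, 1.36 to 70.9 CPM in CD4+CD8+ and 2.35 to 3.79 CPM in splenic CD8 libraries. The part of these cells in the results was not tested, and in bulk samples fewer cells of a type and less RNA per cell cannot be told apart. The descriptions name iRTE 1 to 3 in another style than iRTE 4 and 5, which carry the pmel prefix of the splenic libraries. The labels state no batch, and values are also given for each of these sets.

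The receptors did not move as a block. Tnfrsf18 and Tnfrsf1b were higher in iRTE than in each of the other 3 groups, Cd226 was far lower in all cultured cells than in splenic cells, and Cd28 and Cd2 were lower in iRTE than in Artificial CD8 cells. Of the 9, 4 were higher and 2 lower in iRTE than in Artificial CD8, by edgeR's quasi-likelihood test with Benjamini-Hochberg adjustment at a threshold of 0.05. Over all genes tested the same comparison called 20% higher and 18.7% lower. Between iRTE and splenic CD8 cells 3 were higher and 2 lower in iRTE (29.2% and 29% of all genes), and between Artificial CD8 and splenic CD8 cells 2 were higher and 5 lower in Artificial CD8 (30.3% and 30.2%). Between iRTE and CD4+CD8+ cells 3 were higher and 1 lower in iRTE (11.8% and 12.3%). Artificial CD8 against CD4+CD8+ gave 0 higher and 2 lower (6.54% and 8.12%), and CD4+CD8+ against splenic CD8 gave 1 higher and 3 lower (28.9% and 27.4%). The median log2 fold change of the 9 was 0.51 for iRTE against Artificial CD8, with 0.01 over all genes, -0.11 for iRTE against splenic CD8 (-0.05 over all genes), and -0.71 for Artificial CD8 against splenic CD8 (-0.03). It was 0.82 for iRTE against CD4+CD8+ (0.02), 0.18 for Artificial CD8 against CD4+CD8+ (0.00) and -0.48 for CD4+CD8+ against splenic CD8 (-0.03). Every fold change is on the log2 scale, from the fit after TMM scaling, with the group named first on top, and each ± after one is the SE from the within-group variances of log2 CPM. Comparisons that share a group share its libraries.

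**Figure D1:**
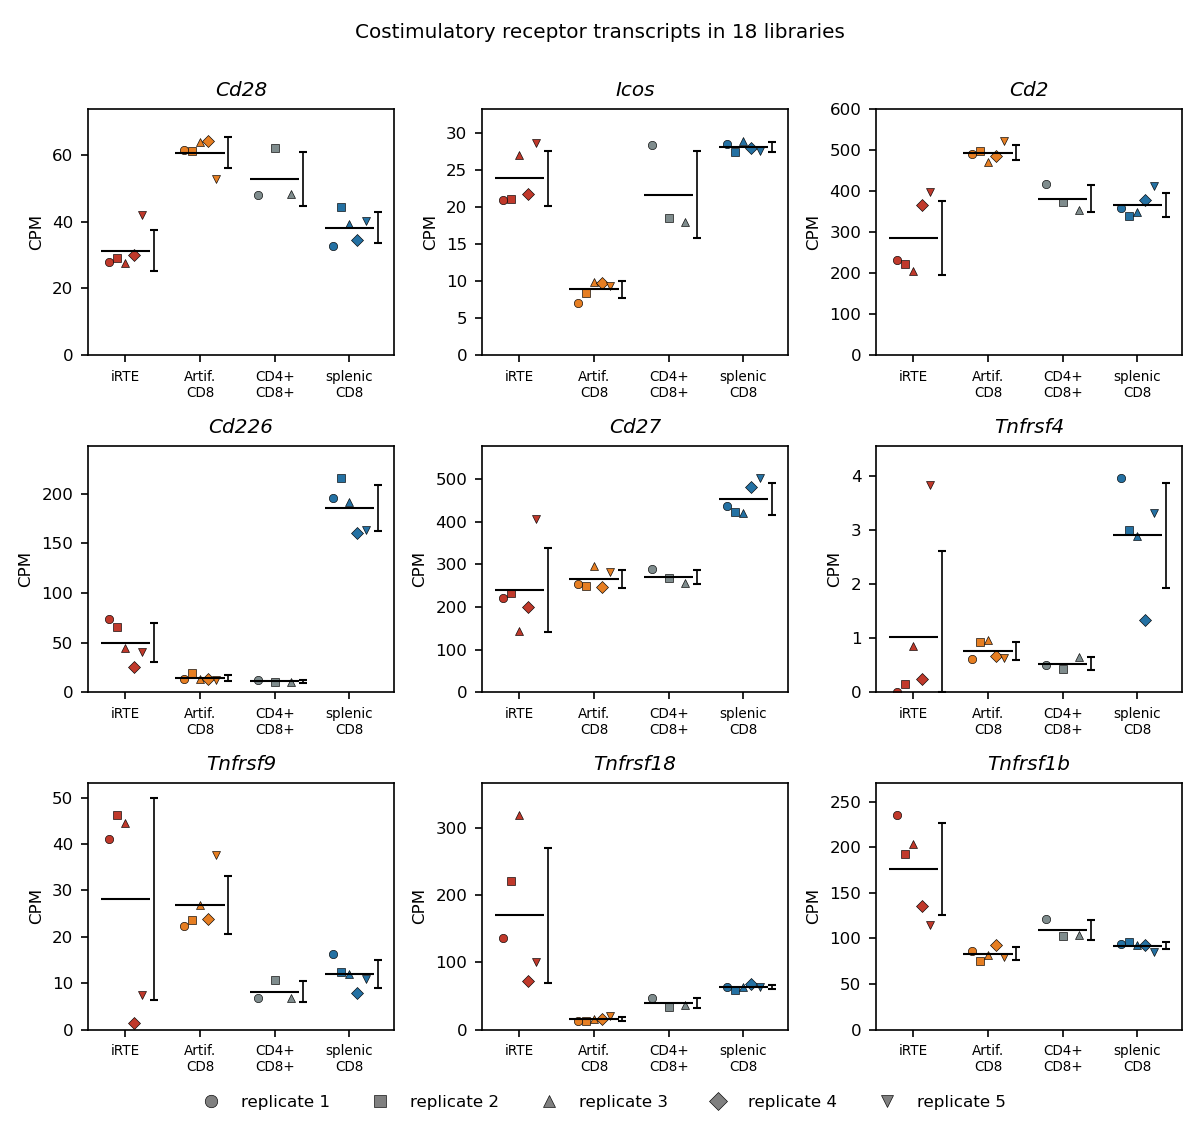
CPM (vertical axes, from 0) of the 9 receptor genes in every library of iRTE, Artificial CD8, CD4+CD8+ and splenic CD8, left to right, with marker shapes for the replicate numbers, a black line at the group mean and a bar of 1 SD beside it. Tnfrsf18 lies between 72.9 and 319 CPM in iRTE, above every other library, and Cd226 lies between 160.3 and 216 CPM in splenic CD8, above every cultured library.

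Cd28, on chromosome 1, encodes the main costimulatory receptor of naive T cells. Its level was 27.9, 29.1, 27.5, 29.9 and 42.1 CPM in iRTE 1 to 5, 61.4, 61.2, 63.7, 64.2 and 52.7 CPM in Artificial CD8 1 to 5, 48.0, 62.1 and 48.2 CPM in CD4+CD8+ 1 to 3, and 32.5, 44.2, 39.3, 34.5 and 40.2 CPM in splenic CD8 1 to 5. Every iRTE library lay below every Artificial CD8 and CD4+CD8+ library, and the iRTE and splenic ranges overlapped. Cd28 fell in iRTE relative to Artificial CD8 (-0.84 ± 0.10, edgeR adjusted p = 2.48e-05) and relative to CD4+CD8+ (-0.65 ± 0.15, edgeR adjusted p = 0.00185). It rose relative to splenic CD8 in Artificial CD8 (0.73 ± 0.09, edgeR adjusted p = 4.2e-05) and in CD4+CD8+ (0.54 ± 0.14, edgeR adjusted p = 0.00265). At the ends of the order, Artificial CD8 and CD4+CD8+ did not differ beyond their spread (0.18 ± 0.13, edgeR adjusted p = 0.420), and neither did iRTE and splenic CD8 (-0.11 ± 0.12, edgeR adjusted p = 0.450). The call against CD4+CD8+ was lost when the 2 groups were fitted alone (-0.65, edgeR adjusted p = 0.0641).

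Icos, the relative of Cd28 known for follicular helper and effector responses, followed another order. It stood at 20.96, 21.04, 27.1, 21.8 and 28.7 CPM in iRTE 1 to 5, 7.10, 8.40, 9.86, 9.74 and 9.35 CPM in Artificial CD8 1 to 5, 28.4, 18.6 and 17.9 CPM in CD4+CD8+ 1 to 3, and 28.5, 27.5, 29.0, 28.0 and 27.6 CPM in splenic CD8 1 to 5. The 5 Artificial CD8 libraries lay below all others, and the other 3 groups overlapped. Icos was higher in iRTE than in Artificial CD8 (1.55 ± 0.12, edgeR adjusted p = 3.95e-07). In Artificial CD8 it was lower than in splenic CD8 (-1.60 ± 0.09, edgeR adjusted p = 5.99e-08) and lower than in CD4+CD8+ (-1.31 ± 0.24, edgeR adjusted p = 8.92e-05). The difference between iRTE and splenic CD8 was -0.05 ± 0.09 (edgeR adjusted p = 0.783). Without CD4+CD8+ replicate 1, Icos was also called higher in iRTE than in CD4+CD8+ (0.50, edgeR adjusted p = 0.04998) and lower in CD4+CD8+ than in splenic CD8 (-0.56, edgeR adjusted p = 0.0150). With that library these values were 0.24 ± 0.24 and -0.30 ± 0.23 and did not pass.

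In the RefSeq gene order Ctla4 lies between Cd28 and Icos. It encodes the inhibitory rival that competes with CD28 for the same ligands, and it moved unlike both. Ctla4 averaged 149 ± 20.6 CPM in iRTE, 122 ± 8.43 CPM in Artificial CD8, 57.3 ± 5.33 CPM in CD4+CD8+ and 3.64 ± 0.494 CPM in splenic CD8 (SD, n = 5, 5, 3 and 5). Relative to splenic CD8 it rose by 5.54 ± 0.13 in iRTE (edgeR adjusted p = 7.26e-16), by 5.14 ± 0.10 in Artificial CD8 (edgeR adjusted p = 1.71e-15) and by 4.06 ± 0.11 in CD4+CD8+ (edgeR adjusted p = 1.13e-13). The values of Cd28 and Icos for iRTE against splenic CD8 were -0.11 and -0.05.

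Cd2, on chromosome 3, encodes an adhesion receptor that lowers the antigen dose a T cell needs. It had 231, 223, 204, 367 and 398 CPM in iRTE 1 to 5, 492, 498, 471, 486 and 523 CPM in Artificial CD8 1 to 5, 418, 373 and 354 CPM in CD4+CD8+ 1 to 3, and 358, 338, 349, 378 and 413 CPM in splenic CD8 1 to 5. Every Artificial CD8 library lay above every other library, while iRTE 1 to 3 lay below all others. In CPM iRTE 4 and 5 lay within the splenic range, and after TMM scaling iRTE 5 lies above it. Cd2 was lower in iRTE than in Artificial CD8 (-0.69 ± 0.17, edgeR adjusted p = 0.000499) and higher in Artificial CD8 than in splenic CD8 (0.48 ± 0.06, edgeR adjusted p = 0.00434). Between iRTE and splenic CD8 the difference was -0.20 ± 0.17 (edgeR adjusted p = 0.202). With iRTE 4 and 5 alone it was 0.165 and was not called (edgeR adjusted p = 0.184). Without iRTE 5 it was called at -0.32 (edgeR adjusted p = 0.0277), and without both iRTE 4 and 5 at -0.51 (edgeR adjusted p = 4.77e-05). Against CD4+CD8+ the iRTE value of -0.33 ± 0.19 was likewise called at -0.43 without iRTE 4 (edgeR adjusted p = 0.0331) and at -0.45 without iRTE 5 (edgeR adjusted p = 0.0176). CD4+CD8+ and splenic CD8, neighbours in the order, differed by 0.13 ± 0.10 (edgeR adjusted p = 0.477), and Artificial CD8 and CD4+CD8+ by 0.35 ± 0.09 (edgeR adjusted p = 0.142), called at 0.35 when these 2 groups were fitted alone (edgeR adjusted p = 0.0130). With iRTE 4 and 5 alone the value against Artificial CD8 was -0.33 (edgeR adjusted p = 0.0172).

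Cd226, on chromosome 18, encodes the adhesion receptor DNAM-1 of cytotoxic lymphocytes. It showed the widest gap between cultured and splenic cells among the 9 genes. Its level was 73.7, 65.8, 44.5, 24.98 and 40.6 CPM in iRTE 1 to 5, 13.2, 19.6, 13.8, 13.8 and 12.4 CPM in Artificial CD8 1 to 5, 12.3, 9.89 and 10.6 CPM in CD4+CD8+ 1 to 3, and 195, 216, 192, 160.3 and 163 CPM in splenic CD8 1 to 5. No library of iRTE overlapped with a library of another group. The fall relative to splenic CD8 was -1.70 ± 0.31 in iRTE (edgeR adjusted p = 5.28e-06), -3.61 ± 0.14 in Artificial CD8 (edgeR adjusted p = 5.88e-10) and -4.01 ± 0.13 in CD4+CD8+ (edgeR adjusted p = 7.86e-09). Cd226 was higher in iRTE than in Artificial CD8 (1.92 ± 0.32, edgeR adjusted p = 3.77e-06) and than in CD4+CD8+ (2.31 ± 0.32, edgeR adjusted p = 1.44e-05). Artificial CD8 and CD4+CD8+ differed by 0.40 ± 0.15 (edgeR adjusted p = 0.374). With iRTE 4 and 5 alone the value against Artificial CD8 was 1.20 (edgeR adjusted p = 0.000138).

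Cd27, on chromosome 6, encodes a TNF receptor family member that sustains T-cell survival after priming. It had 221, 233, 144, 200.1 and 407 CPM in iRTE 1 to 5, 253, 250.1, 296, 247 and 282 CPM in Artificial CD8 1 to 5, 289, 268 and 257 CPM in CD4+CD8+ 1 to 3, and 437, 423, 419.7, 482 and 503 CPM in splenic CD8 1 to 5. In CPM, which are not TMM-scaled, the splenic libraries lay above all cultured ones, and iRTE 5 was the cultured library nearest to them. The TMM factors were 0.999 for iRTE 5 and 1.05 to 1.06 for splenic CD8. After division by them iRTE 5 lies within the splenic range. Cd27 fell relative to splenic CD8, with -0.75 ± 0.22 in iRTE (edgeR adjusted p = 0.000896), -0.71 ± 0.07 in Artificial CD8 (edgeR adjusted p = 0.00119) and -0.66 ± 0.08 in CD4+CD8+ (edgeR adjusted p = 0.00806). With iRTE 4 and 5 alone the iRTE value was -0.48 (edgeR adjusted p = 0.0428). The 3 cultured groups did not differ beyond their spread, at -0.03 ± 0.22 for iRTE against Artificial CD8, -0.08 ± 0.23 for iRTE against CD4+CD8+ and -0.05 ± 0.08 for Artificial CD8 against CD4+CD8+. E130112N10Rik overlaps Cd27 in RefSeq and is not analysed here, and the strand setting of the counting is not given in the sources used here.

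**Figure D2:**
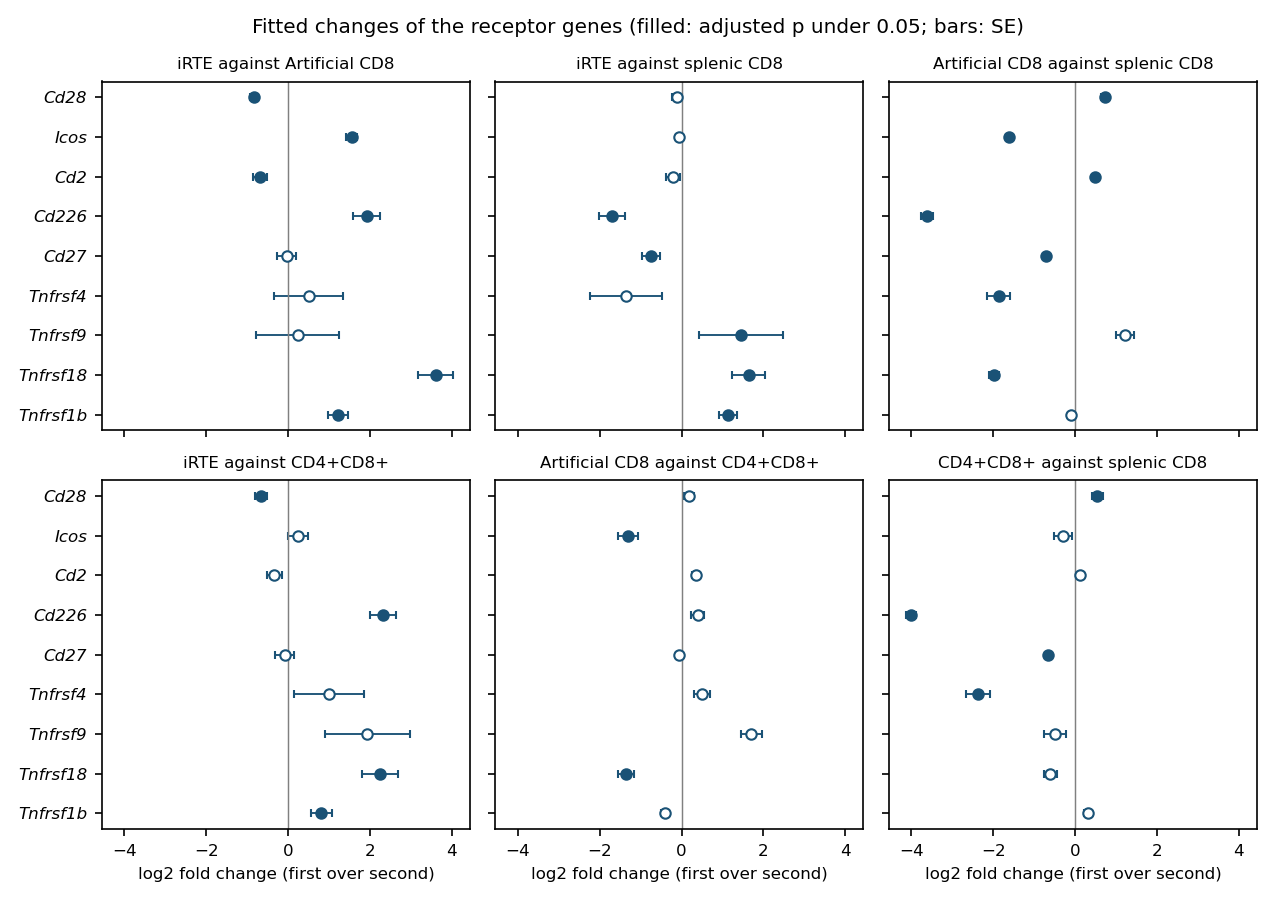
Fitted log2 fold change (horizontal axes, first group over second) of the 9 genes in the 6 comparisons, with bars of 1 SE and filled points where edgeR's adjusted p was under 0.05. In the panel of iRTE against Artificial CD8, Tnfrsf18 stands at 3.61 and Cd28 at -0.84. Against splenic CD8, Cd226 stands at -1.70 for iRTE, -3.61 for Artificial CD8 and -4.01 for CD4+CD8+.

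Tnfrsf18 encodes GITR, which costimulates effector cells and is known as a regulatory T-cell marker. It had 136, 221, 319, 72.9 and 100.4 CPM in iRTE 1 to 5, 12.5, 13.2, 16.1, 16.0 and 19.5 CPM in Artificial CD8 1 to 5, 47.3, 33.8 and 36.8 CPM in CD4+CD8+ 1 to 3, and 63.5, 59.1, 62.9, 67.2 and 63.1 CPM in splenic CD8 1 to 5. The 4 groups did not overlap, in the order iRTE, splenic CD8, CD4+CD8+, Artificial CD8 from the highest. Tnfrsf18 was higher in iRTE by 3.61 ± 0.43 against Artificial CD8 (edgeR adjusted p = 1.01e-07), by 2.24 ± 0.44 against CD4+CD8+ (edgeR adjusted p = 0.000223) and by 1.64 ± 0.41 against splenic CD8 (edgeR adjusted p = 0.00013). Without iRTE 1 to 3 these were 2.52, 1.16 and 0.56, all still called (edgeR adjusted p = 3.04e-08, 0.000422 and 0.0144). In Artificial CD8 it fell relative to splenic CD8 (-1.97 ± 0.12, edgeR adjusted p = 1.99e-05) and relative to CD4+CD8+ (-1.37 ± 0.19, edgeR adjusted p = 0.0108). The last of these calls was lost without CD4+CD8+ replicate 1 (-1.20, edgeR adjusted p = 0.0613) and with limma-voom (-1.35, limma adjusted p = 0.0536). CD4+CD8+ and splenic CD8, at -0.61 ± 0.16, did not pass (edgeR adjusted p = 0.143), although a fit of the 2 groups alone called that difference (-0.60, edgeR adjusted p = 0.000922). Foxp3, the master regulator of regulatory T cells, averaged 1.60 CPM in iRTE, 29.2 CPM in Artificial CD8, 17.8 CPM in CD4+CD8+ and 1.95 CPM in splenic CD8. The other regulatory T markers follow in the order iRTE, Artificial CD8, CD4+CD8+ and splenic CD8. Ctla4 averaged 149, 122, 57.3 and 3.64 CPM, Ikzf2 129.95, 199.6, 93.4 and 42.0 CPM, and Il2ra 86.5, 542, 213 and 4.30 CPM. Foxp3, Ikzf2 and Il2ra had their highest means in Artificial CD8, and Ctla4 had its highest mean in iRTE. The part of regulatory T cells in the level of Tnfrsf18 was not tested. Gm16008 overlaps Tnfrsf18 on the other strand in RefSeq and averaged 1.21 CPM in iRTE, 0.332 CPM in Artificial CD8 and 2.43 CPM in splenic CD8.

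Tnfrsf4, the OX40 gene, adjoins Tnfrsf18 on the same strand and was close to the limit of detection. It had 0, 0.162, 0.861, 0.242 and 3.83 CPM in iRTE 1 to 5, 0.618, 0.940, 0.962, 0.673 and 0.627 CPM in Artificial CD8 1 to 5, 0.511, 0.423 and 0.655 CPM in CD4+CD8+ 1 to 3, and 3.96, 3.00, 2.90, 1.33 and 3.32 CPM in splenic CD8 1 to 5. These values rest on 0 to 60 counts per iRTE library, 10 to 16 per Artificial CD8 library, 5 to 8 per CD4+CD8+ library and 21 to 70 per splenic library. In CPM the splenic libraries lay above all Artificial CD8 and CD4+CD8+ libraries, and iRTE 5, which held 60 counts, lay within the splenic range. Tnfrsf4 was lower in Artificial CD8 (-1.86 ± 0.28, edgeR adjusted p = 0.0346) and in CD4+CD8+ (-2.36 ± 0.29, edgeR adjusted p = 0.0385) than in splenic CD8. Each of these calls was lost in 8 alternatives. The first was lost without any one of splenic CD8 1, 2, 3 or 5 or Artificial CD8 1, 3, 4 or 5 (-1.93 to -1.69), and the second without any CD4+CD8+ library, without splenic CD8 1, 2, 3 or 5 (-2.52 to -2.19) and with no filter on low counts (-2.34). The difference between iRTE and splenic CD8 was -1.35 ± 0.88 (edgeR adjusted p = 0.115), and without iRTE 5 it was called at -2.95 (edgeR adjusted p = 0.000552). It was also called with limma-voom (-2.56, limma adjusted p = 0.00373). Sdf4, which averaged 640.4 CPM in iRTE and 306 CPM in splenic CD8, overlaps the start of Tnfrsf4 in RefSeq, so part of the counts of either gene is uncertain.

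Tnfrsf9 encodes 4-1BB, a receptor that activated CD8+ cells carry and that promotes their survival. It had 41.1, 46.2, 44.6, 1.39 and 7.41 CPM in iRTE 1 to 5, 22.2, 23.6, 26.8, 23.8 and 37.7 CPM in Artificial CD8 1 to 5, 6.81, 10.7 and 6.80 CPM in CD4+CD8+ 1 to 3, and 16.3, 12.5, 11.97, 7.93 and 11.0 CPM in splenic CD8 1 to 5. In iRTE 1 to 3 the level was above that of every other library, and in iRTE 4 and 5 it was below that of every splenic library. Over all 5 iRTE libraries the value against splenic CD8 was 1.46 ± 1.02 (edgeR adjusted p = 0.0336). It was 2.11 with iRTE 1 to 3 alone (edgeR adjusted p = 5.62e-08) and -1.35 with iRTE 4 and 5 alone (edgeR adjusted p = 0.0237), so the direction depended on the set. The pooled call was lost without any one of iRTE 1, 2 or 3 (1.21 to 1.27) or splenic CD8 2, 3, 4 or 5 (1.36 to 1.48), with no filter (1.45), with limma-voom (0.33) and with the 2 groups fitted alone (1.46). Against Artificial CD8 the pooled value was 0.23 ± 1.01 (edgeR adjusted p = 0.772), with 0.89 for iRTE 1 to 3 alone and -2.59 for iRTE 4 and 5 alone, both called (edgeR adjusted p = 0.00151 and 0.00063). Against CD4+CD8+ it was 1.94 ± 1.03 (edgeR adjusted p = 0.0502), and it was called at 2.25 without iRTE 4 (edgeR adjusted p = 0.00105) and at 2.19 without iRTE 5 (edgeR adjusted p = 0.0161). It had the opposite sign with iRTE 4 and 5 alone and was not called (-0.87, edgeR adjusted p = 0.203). Every Artificial CD8 library lay above every CD4+CD8+ and splenic library, yet neither difference passed in the fit of all groups (1.71 ± 0.25, edgeR adjusted p = 0.107, and 1.22 ± 0.21, edgeR adjusted p = 0.0665). When each pair of groups was fitted alone both were called (1.71, edgeR adjusted p = 0.000272, and 1.23, edgeR adjusted p = 1.15e-05).

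Tnfrsf1b encodes TNFR2, the receptor of TNF and lymphotoxin alpha on lymphocytes. It had 235, 193, 204, 135 and 114 CPM in iRTE 1 to 5, 86.6, 75.3, 82.3, 92.9 and 79.95 CPM in Artificial CD8 1 to 5, 121, 102 and 103 CPM in CD4+CD8+ 1 to 3, and 94.3, 96.0, 92.5, 93.1 and 85.3 CPM in splenic CD8 1 to 5. Every iRTE library lay above every Artificial CD8 and splenic library, and iRTE 5 lay within the CD4+CD8+ range. Tnfrsf1b was higher in iRTE by 1.22 ± 0.23 against Artificial CD8 (edgeR adjusted p = 1.47e-05), by 0.82 ± 0.25 against CD4+CD8+ (edgeR adjusted p = 0.00536) and by 1.13 ± 0.23 against splenic CD8 (edgeR adjusted p = 1.56e-05). With iRTE 4 and 5 alone these were 0.62, 0.23 and 0.55, and the value against CD4+CD8+ was no longer called (edgeR adjusted p = 0.210), nor was it in a fit of the 2 groups alone (0.82, edgeR adjusted p = 0.0895). Among the other 3 groups every CD4+CD8+ library lay above every Artificial CD8 and splenic library, but no difference passed the threshold in the fit of all libraries, at -0.41 ± 0.11 for Artificial CD8 against CD4+CD8+, -0.09 ± 0.06 for Artificial CD8 against splenic CD8 and 0.32 ± 0.10 for CD4+CD8+ against splenic CD8. When 2 groups were fitted alone the first and the last of these were called (-0.40 and 0.32, edgeR adjusted p = 0.0167 and 0.00888). The neighbouring receptor gene Tnfrsf8, which encodes CD30, averaged 0.447 CPM in iRTE, all of it from 2.24 CPM in iRTE 5, 33.8 ± 2.79 CPM in Artificial CD8 and 21.2 CPM in CD4+CD8+, and had no count in splenic CD8. Against the floor of 3 counts per library it was at least 125-fold higher in Artificial CD8 and at least 78.6-fold higher in CD4+CD8+ than in splenic CD8.

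Within iRTE, the CPM of 6 of the 9 genes in libraries 1 to 3 did not overlap with those in libraries 4 and 5. The same held for 30% of all genes tested. Tnfrsf9, Tnfrsf18, Tnfrsf1b and Cd226 were higher in iRTE 1 to 3, with means of 43.9, 225, 211 and 61.3 CPM against 4.40, 86.6, 125 and 32.8 CPM in iRTE 4 and 5. Cd28 and Cd2 were lower in iRTE 1 to 3, at 28.2 and 219.5 CPM against 36.0 and 383 CPM. For Cd28 the gap was narrow, from 29.1 CPM in iRTE 2 to 29.9 CPM in iRTE 4. It closes after TMM scaling, whose factors were 0.886 to 0.912 in iRTE 1 to 3 and 0.971 in iRTE 4. The mean of 36.0 CPM rests largely on 42.1 CPM in iRTE 5. Icos, Cd27 and Tnfrsf4 overlapped. The sets were told apart by the style of their descriptions, and no p-value is given for them.

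**Figure D3:**
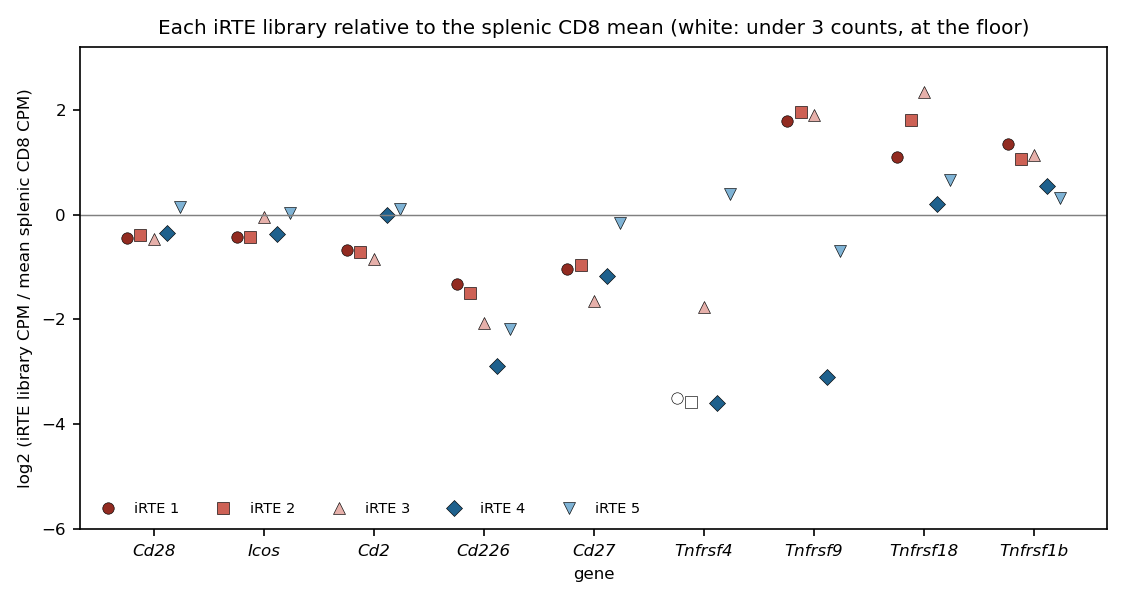
log2 ratio of each iRTE library's CPM to the mean CPM of the 5 splenic CD8 libraries (vertical axis), for the 9 genes, with red shades for iRTE 1 to 3 and blue shades for iRTE 4 and 5. White symbols mark Tnfrsf4 in libraries with under 3 counts, drawn at the floor. Tnfrsf9 lies above 0 in iRTE 1 to 3 and below 0 in iRTE 4 and 5, Cd226 lies below 0 in all 5, and Tnfrsf1b and Tnfrsf18 lie above 0 in all 5.

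Levels of different genes were set side by side per kilobase of exon, with exon lengths of GENCODE M21 on GRCm38, since the counts were made on mm9 with an annotation not given in the sources used here. On the scale of CPM per kilobase, Cd2 had the highest mean of the 9 in every group. It stood at 164 ± 52.0 in iRTE, 284 ± 10.9 in Artificial CD8, 219 ± 18.9 in CD4+CD8+ and 211 ± 16.8 in splenic CD8. The iRTE sets differed in this. In iRTE 1 to 3 Tnfrsf18 averaged 225 CPM over 1524 exon bases and Cd2 219.5 CPM over 1741, so Tnfrsf18 was the higher per kilobase. In iRTE 4 and 5 Cd2 was the higher, at 383 CPM against 86.6 CPM. Tnfrsf4 had the lowest mean in every group, at 0.747 ± 1.18 in iRTE, 0.560 ± 0.126 in Artificial CD8, 0.388 ± 0.0860 in CD4+CD8+ and 2.13 ± 0.712 in splenic CD8. The second place went to Tnfrsf18 in iRTE (111 ± 65.9), where Cd27 stood at 103 ± 42.5, a gap within the spread. In the other groups Cd27 was second, at 114 ± 9.41 in Artificial CD8, 117 ± 6.999 in CD4+CD8+ and 194 ± 16.0 in splenic CD8. Cd226 per kilobase stood at 10.2 ± 4.04 in iRTE, 2.98 ± 0.590 in Artificial CD8, 2.23 ± 0.249 in CD4+CD8+ and 37.9 ± 4.76 in splenic CD8.

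For each receptor the 2 genes nearest in pattern were found by the root mean square (RMS) difference of centred log2 CPM over the 18 libraries, among 11537 genes. Hjurp (0.17) and Mettl6 (0.18) were nearest to Cd28, Sepw1 (0.18) and Ssbp2 (0.23) to Icos, and Slc7a6 (0.16) and Hbs1l (0.19) to Cd2. Slfn8 (0.31) and Tgtp2 (0.37) were nearest to Cd226, and Lat (0.16), the adaptor of the T-cell receptor, and Trmt2a (0.17) to Cd27. Ncf1 (0.44) and H2-DMb2 (0.54) were nearest to Tnfrsf18, and Srgn (0.16) and Sri (0.19) to Tnfrsf1b. The distances were larger for Tnfrsf4, with Aarsd1 (0.65) and Vps9d1 (0.66), and for Tnfrsf9, with Rundc3b (0.72) and Hist1h2bb (0.72). Among the receptors the nearest pair was Cd28 and Cd2, with an RMS difference of 0.25. These distances are not scaled by a gene's own spread over the libraries. That spread was 0.39 for Cd28 and 0.34 for Cd2, the lowest of the receptors. It was 1.30 for Tnfrsf4, 1.25 for Tnfrsf9, 1.36 for Tnfrsf18 and 1.61 for Cd226.

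The ligands of these receptors were measured in the same T cells. Of 12 ligand genes 9 were tested, and in iRTE 5 were higher and 3 lower than in Artificial CD8 (median log2 fold change 0.75). Over all genes the shares called higher and lower were 20% and 18.7% for this comparison, 29.2% and 29% for iRTE against splenic CD8, and 30.3% and 30.2% for Artificial CD8 against splenic CD8, which is the background for the counts of all 7 lists. Cd48, the mouse ligand of CD2, averaged 552 ± 59.8 CPM in iRTE and 357 ± 14.7 CPM in Artificial CD8 (0.75 ± 0.07, edgeR adjusted p = 2.17e-06). Lta, lymphotoxin alpha, rose by 1.91 ± 0.35, while Pvr, a ligand of CD226, and Cd80 fell, with -2.03 ± 0.44 and -2.402 ± 0.40 (edgeR adjusted p = 3.54e-05, 2.08e-05 and 0.000757). Against splenic CD8 3 ligand genes were higher and 2 lower in iRTE, and 3 were higher and 4 lower in Artificial CD8 (medians 0.39 and -0.33). With the filter of 10 CPM, which leaves fewer ligand genes to test, 5 in place of 8 were called for iRTE against Artificial CD8 and 3 in place of 7 for Artificial CD8 against splenic CD8. The CD28 ligands Cd80 and Cd86 took different orders across the groups. Cd80 averaged 1.61 ± 0.880 CPM in iRTE, 9.32 ± 1.64 CPM in Artificial CD8 and 0.115 ± 0.133 CPM in splenic CD8, and it was higher than in splenic CD8 in both (3.799 ± 0.50 and 6.20 ± 0.35, edgeR adjusted p = 4.43e-05 and 1.14e-07). Cd86 averaged 2.52 ± 1.73 CPM in iRTE and 20.7 ± 2.22 CPM in splenic CD8, and had no count in Artificial CD8 or CD4+CD8+. Cd86 fell in iRTE relative to splenic CD8 (-2.85 ± 0.96, edgeR adjusted p = 0.00243) and was at least 109.9-fold lower in Artificial CD8 and at least 80.9-fold lower in CD4+CD8+. Pvr was lower in iRTE than in splenic CD8 as well, at 4.80 ± 2.92 CPM against 27.8 ± 2.22 CPM (-2.36 ± 0.43, edgeR adjusted p = 1.95e-06). Cd70 and Tnfsf18, the ligands of CD27 and GITR, had no count in any library.

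Of the rival and inhibitory receptors that share ligands or families with the 9, 6 were tested. In iRTE 3 were higher and 1 lower than in Artificial CD8, and 4 were higher and 1 lower than in splenic CD8. In Artificial CD8 3 were higher and 2 lower than in splenic CD8, and the medians of the 3 comparisons were 0.62, 2.14 and 1.68. Against Artificial CD8 2 in place of 4 were called with iRTE 4 and 5 alone, and with the filter of 10 CPM 3 in place of 5 were called for iRTE against splenic CD8. Pdcd1, which encodes the inhibitory receptor PD-1, averaged 3.31 ± 1.94 CPM in iRTE, 168 ± 10.3 CPM in Artificial CD8 and 4.83 ± 0.853 CPM in splenic CD8. It fell in iRTE relative to Artificial CD8 (-5.56 ± 0.34, edgeR adjusted p = 5.42e-11), and the value against splenic CD8 was -0.37 ± 0.35, called at -0.79 without iRTE 2 (edgeR adjusted p = 0.00159) and at -1.01 with iRTE 4 and 5 alone. Cd96, a rival of CD226 for the same ligands, was higher in iRTE than in Artificial CD8 (1.02 ± 0.18, edgeR adjusted p = 1.43e-05). Tigit, the inhibitory rival of CD226, averaged 4.75 ± 2.63 CPM in iRTE and 0.296 ± 0.138 CPM in splenic CD8 (4.17 ± 0.65, edgeR adjusted p = 8.78e-06). Btla averaged 28.6 ± 9.41 CPM in iRTE, 33.4 ± 5.59 CPM in Artificial CD8 and 74.2 ± 10.9 CPM in splenic CD8. It was lower than in splenic CD8 both in iRTE (-1.18 ± 0.32, edgeR adjusted p = 0.000179) and in Artificial CD8 (-1.09 ± 0.15, edgeR adjusted p = 0.000319). Cd244 was called higher in iRTE than in Artificial CD8 (3.85 ± 1.51, edgeR adjusted p = 0.00511) on 27.9, 15.8 and 9.71 CPM in iRTE 1 to 3, with 0 and 1.47 CPM in iRTE 4 and 5. With iRTE 4 and 5 alone that value was -0.19, and limma-voom did not call it (1.82).

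**Figure D4:**
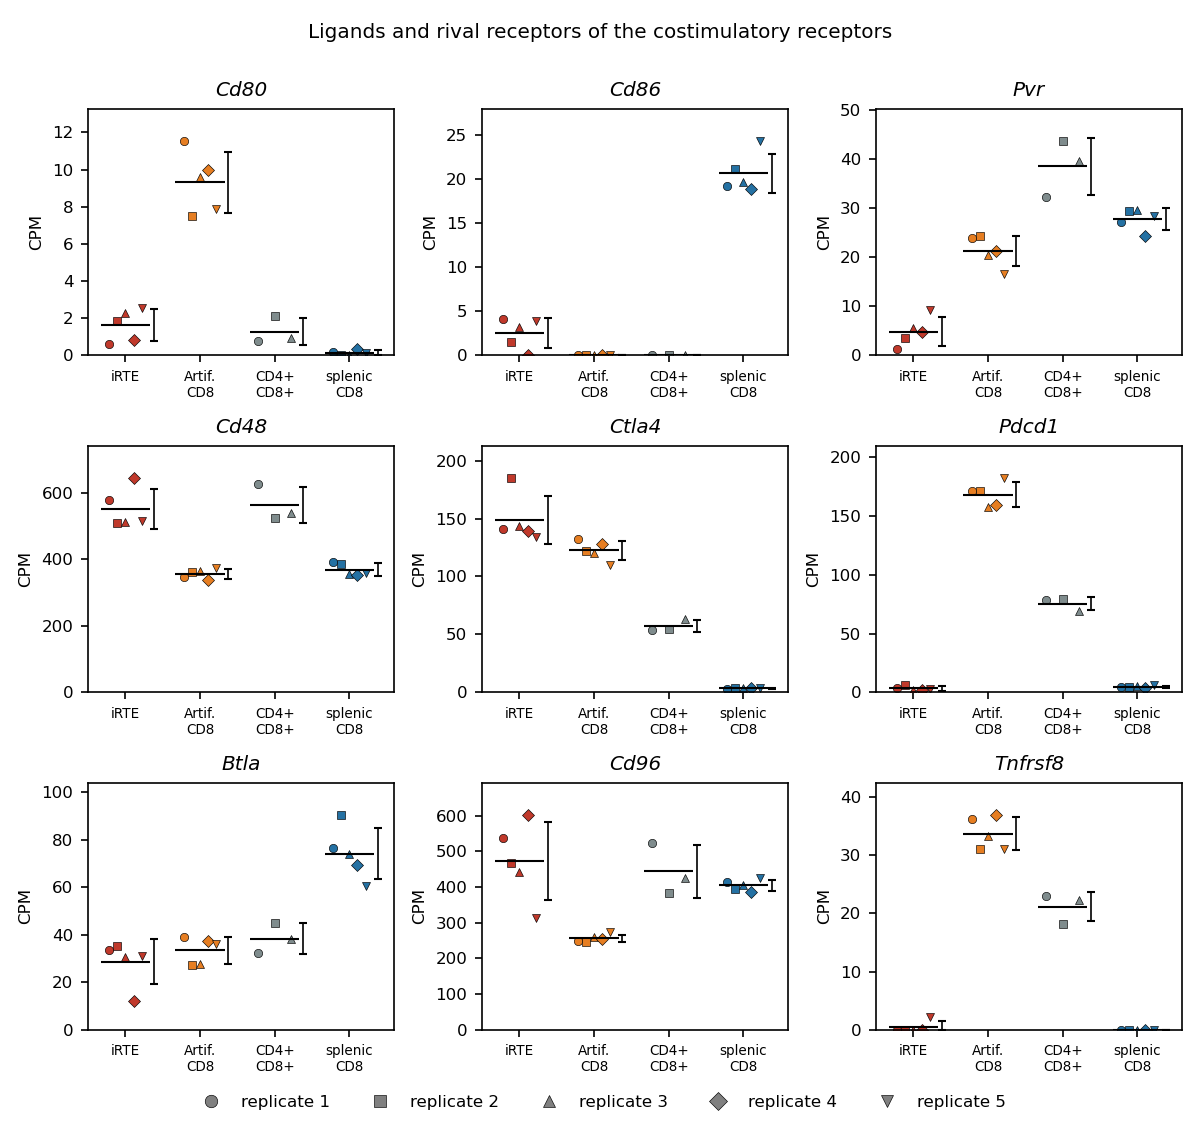
CPM (vertical axes, from 0) of ligand genes, rival receptor genes and the neighbouring receptor gene Tnfrsf8 in every library of iRTE, Artificial CD8, CD4+CD8+ and splenic CD8, left to right, with group means and bars of 1 SD. Pdcd1 averages 168 CPM in Artificial CD8, against 3.31 CPM in iRTE and 4.83 CPM in splenic CD8, and Cd86 has no count in Artificial CD8 or CD4+CD8+.

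The tests covered 15 other TNF receptor superfamily genes: 4 were higher and 2 lower in iRTE than in Artificial CD8, 5 higher and 7 lower in iRTE than in splenic CD8, and 4 higher and 7 lower in Artificial CD8 than in splenic CD8 (medians 0.39, -0.52 and -0.54). Against Artificial CD8 10 in place of 6 were called with iRTE 4 and 5 alone. Relt rose by 0.95 ± 0.15 in iRTE relative to Artificial CD8 (edgeR adjusted p = 2.65e-05) and fell in Artificial CD8 relative to splenic CD8 (-1.56 ± 0.14, edgeR adjusted p = 1.99e-08). Tnfrsf14, the receptor that BTLA binds, fell in iRTE relative to splenic CD8 (-2.004 ± 0.29, edgeR adjusted p = 4.03e-05), and Tnfrsf21 rose (3.59 ± 0.60, edgeR adjusted p = 7.42e-06). Tnfrsf13b, at 60.4 ± 4.12 CPM in iRTE and 64.7 ± 8.74 CPM in Artificial CD8, did not pass (0.03 ± 0.10, edgeR adjusted p = 0.866). Tnfrsf22, Tnfrsf23 and Tnfrsf26 are close paralogs whose reads can be shared, and their values are uncertain. The tests also covered 8 CD2 and SLAM family genes: 4 were higher and 3 lower in iRTE than in Artificial CD8, 2 higher and 4 lower in iRTE than in splenic CD8, and 3 higher and 3 lower in Artificial CD8 than in splenic CD8 (medians 0.35, -0.32 and 0.02). Against splenic CD8 2 in place of 6 were called with iRTE 4 and 5 alone. Sh2d1a, the adaptor SAP of this family, fell in iRTE relative to Artificial CD8 (-1.65 ± 0.30, edgeR adjusted p = 1.77e-05). Cd84 fell relative to splenic CD8, with -1.02 ± 0.19 in iRTE and -1.51 ± 0.07 in Artificial CD8 (edgeR adjusted p = 8.91e-06 and 5.81e-08).

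Downstream of the TNF receptors, 13 TRAF adaptor and cIAP genes were tested. In iRTE 6 were higher and 2 lower than in Artificial CD8 and 2 were higher and 7 lower than in splenic CD8, while in Artificial CD8 2 were higher and 10 lower than in splenic CD8 (medians 0.28, -0.29 and -0.75). Map3k14, the kinase NIK of the alternative NF-kappaB pathway, averaged 6.65 ± 5.23 CPM in iRTE, 4.67 ± 1.21 CPM in Artificial CD8 and 96.4 ± 7.43 CPM in splenic CD8. It fell relative to splenic CD8, with -3.70 ± 0.41 in iRTE (edgeR adjusted p = 4.02e-08) and -4.31 ± 0.18 in Artificial CD8 (edgeR adjusted p = 4.14e-09). Birc2, which encodes cIAP1, fell relative to splenic CD8 in iRTE (-1.42 ± 0.16) and in Artificial CD8 (-1.46 ± 0.05, edgeR adjusted p = 4.3e-08 and 1.59e-08), and Birc3, which encodes cIAP2, was higher in iRTE than in Artificial CD8 (0.90 ± 0.14, edgeR adjusted p = 1.57e-05). Siva1, whose protein is known to bind the CD27 tail, averaged 32.1 ± 14.3 CPM in iRTE, 63.1 ± 6.01 CPM in Artificial CD8 and 16.2 ± 1.29 CPM in splenic CD8. It was lower in iRTE than in Artificial CD8 (-0.83 ± 0.38, edgeR adjusted p = 0.0191) and higher than in splenic CD8 (1.18 ± 0.38, edgeR adjusted p = 0.00111), the second call being lost with iRTE 4 and 5 alone (0.37). The value against Artificial CD8 was -0.46 with iRTE 1 to 3 alone and -1.65 with iRTE 4 and 5 alone.

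Among 22 tail-binding and proximal signalling partners of CD28, ICOS and CD2, 13 were higher and 2 lower in iRTE than in Artificial CD8. Against splenic CD8 2 were higher and 10 lower in iRTE, and 2 were higher and 14 lower in Artificial CD8 (medians of the 3 comparisons 0.27, -0.24 and -0.54). Lcp2, the adaptor SLP-76, rose by 0.74 ± 0.07 in iRTE relative to Artificial CD8 and Bcl10 by 0.65 ± 0.10 (edgeR adjusted p = 7.17e-07 and 3.42e-05). Akt1, a kinase downstream of phosphoinositide 3-kinase, rose in iRTE relative to splenic CD8 by 0.81 ± 0.04 (edgeR adjusted p = 4.27e-08). Lck did not pass in these comparisons, at -0.17 ± 0.07 for iRTE against Artificial CD8, -0.16 ± 0.07 for iRTE against splenic CD8 and 0.00 ± 0.05 for Artificial CD8 against splenic CD8, and without iRTE 4 the iRTE values were called at -0.23 and -0.22.

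Of 15 survival and NF-kappaB feedback targets tested, 10 were higher and 2 lower in iRTE than in Artificial CD8. Against splenic CD8 3 were higher and 5 lower in iRTE, and 2 were higher and 10 lower in Artificial CD8 (medians of the 3 comparisons 0.89, -0.38 and -1.18). Nfkb2 averaged 80.1 ± 19.2 CPM in iRTE, 23.2 ± 2.93 CPM in Artificial CD8 and 112 ± 7.79 CPM in splenic CD8, and rose by 1.92 ± 0.21 in iRTE relative to Artificial CD8 (edgeR adjusted p = 3.25e-08). Relb, its partner, rose by 1.88 ± 0.33 (edgeR adjusted p = 3.54e-06), and by 1.22 with iRTE 4 and 5 alone. Il2ra, the high-affinity interleukin 2 receptor chain, averaged 86.5 ± 57.0 CPM in iRTE, 542 ± 37.3 CPM in Artificial CD8 and 4.30 ± 0.406 CPM in splenic CD8. It fell in iRTE relative to Artificial CD8 (-2.50 ± 0.60, edgeR adjusted p = 3.32e-05) and rose by 4.53 ± 0.60 relative to splenic CD8 (edgeR adjusted p = 7.61e-08). Bcl2l1, the survival gene that CD28 is known to induce, averaged 36.5 ± 7.37 CPM in iRTE, 94.6 ± 7.99 CPM in Artificial CD8, 144 ± 10.4 CPM in CD4+CD8+ and 18.8 ± 1.55 CPM in splenic CD8, with -1.25 ± 0.15 for iRTE against Artificial CD8 and 1.14 ± 0.15 for iRTE against splenic CD8 (edgeR adjusted p = 4.2e-07 and 6.43e-07). Nfkbid fell in iRTE relative to splenic CD8 (-2.10 ± 0.58, edgeR adjusted p = 0.000645), with -3.17 without iRTE 5 and -1.33 with iRTE 4 and 5 alone. Nfkbia did not pass in that comparison (-0.77 ± 0.48, edgeR adjusted p = 0.0627) and was called at -1.50 without iRTE 5 (edgeR adjusted p = 4.81e-07). It was also called with DESeq2 (-0.79), with limma-voom (-1.12), with a replicate block (-1.03) and with iRTE 1 to 3 alone (-1.31).

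**Figure D5:**
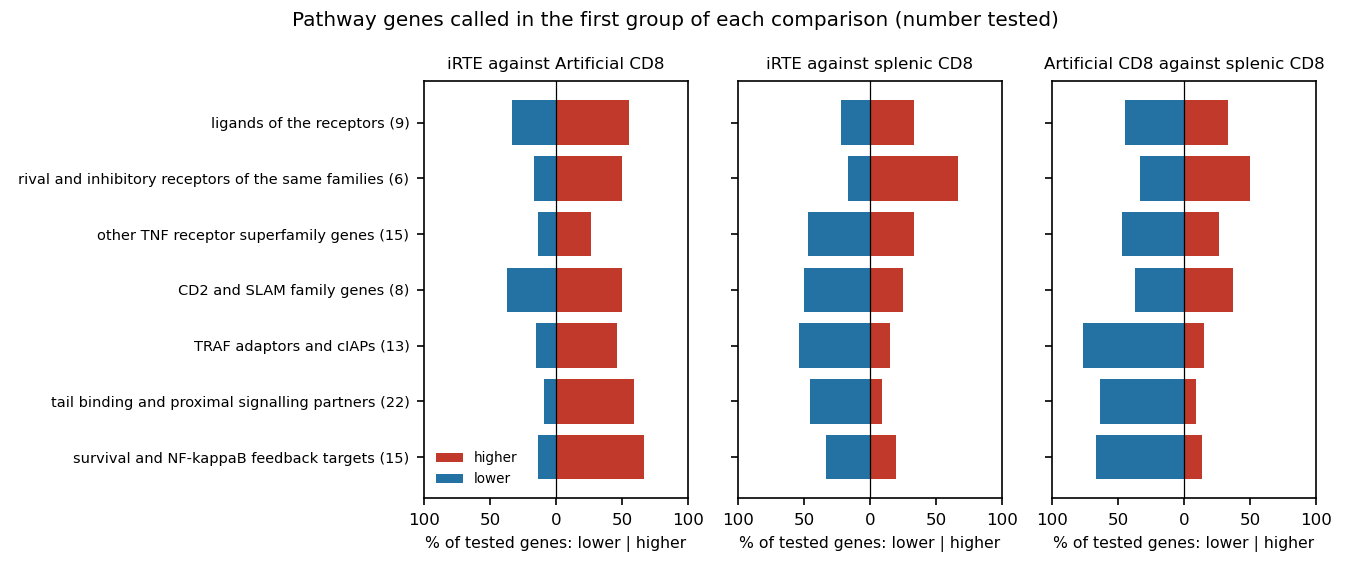
Percent of the tested genes of each of the 7 pathway lists that were called higher (red, right) or lower (blue, left) in the first group of 3 comparisons, with the number of genes tested in brackets. For the 22 tail-binding and proximal signalling partners the bars stand for 13 higher and 2 lower genes in iRTE against Artificial CD8, and for 2 higher and 14 lower in Artificial CD8 against splenic CD8.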

How the data were processed

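Counts per gene symbol were deposited as whole numbers for each library. Per the submitters' processing notes the authors aligned reads with STAR 2.4.2 to mm9 and counted with Subread, and per the file headers the alignments were sorted and duplicate-marked. Neither strand handling nor the gene annotation is given in the sources used here. A deposited table of log2 values, made by the authors with edgeR per the same notes, holds 17765 genes and was used only as a check: it equals TMM-scaled log2 CPM with a prior count of 2.

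The filterByExpr function of edgeR 4.0.16 (R 4.3.3) left 13922 genes, which were scaled by TMM and fitted in a quasi-likelihood model with 1 coefficient per group over all 18 libraries. The 6 comparisons were tested with Benjamini-Hochberg adjustment over all genes tested, at 0.05. CPM use the total count of a library without TMM scaling, so fitted folds can differ from CPM ratios. Statements that libraries or groups overlap or not also use these CPM. The TMM factors were 0.886 to 0.999 in iRTE and 1.05 to 1.06 in splenic CD8. They were 1.01 to 1.02 in Artificial CD8 and 0.985 to 1.01 in CD4+CD8+, so narrow gaps in CPM can close after scaling. Folds against a group with no count use 3 counts in the shallowest library of that group. The pipeline was tested on simulated data.

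Replicates differed by more than counting error (chi-square per degree of freedom at least 4.67).

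The alternatives were RLE and upper quartile scaling, no filter and a filter of 10 CPM in 3 libraries, DESeq2 1.42.0, limma-voom (limma 3.58.1), fits of 2 groups alone, a replicate block, leaving out each library, and each iRTE set alone. Pathway genes were named by a rule: in each list and comparison the 2 called genes with the smallest adjusted p in each direction, and the most abundant one that did not pass. The text gives a selection of these. Genome neighbours and the nearest genes in pattern were also named. The members, lists and tests were chosen with earlier results of these data known. Pvrig and Trdc are not analysed here. Promoters of Cd28, Icos, Cd2 and Cd226 are not used here. Some genes that the naming rule selects are not reported here.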

Additional observations from a re-analysis of the deposited data

Results flagged for a closer look

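In 27 sets of 5 libraries (the 9 receptors in iRTE, Artificial CD8 and splenic CD8), 4 libraries stood apart from the rest of their group by Dixon's criterion, where chance gives about 1 in 20 sets. Cd28 was highest in iRTE 5, at 42.1 CPM, and lowest in Artificial CD8 5, at 52.7 CPM. Tnfrsf4 was highest in iRTE 5, at 3.83 CPM. Cd226 was highest in Artificial CD8 2, at 19.6 CPM. Without iRTE 5, the value of Tnfrsf4 in iRTE against splenic CD8 was -2.95, in place of -1.35. The calls of Cd28 and Cd226 did not change when any one of these libraries was left out.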

How the results depend on the processing

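Of 28 called changes of receptor genes, 22 kept their direction and their call in every alternative, and of 26 that did not pass, 13 were never called. The lost calls are given beside their genes above. With iRTE 4 and 5 alone Tnfrsf9 changed sign and was called, at -2.59 against Artificial CD8 and -1.35 against splenic CD8, and its value against CD4+CD8+ was -0.87 and was not called. Among pathway genes Cd244 turned to -0.19 and -0.16 in the same comparisons and was not called there. When 2 groups were fitted alone, Artificial CD8 against CD4+CD8+ gave 5 called receptors in place of 2 and 3362 called genes in place of 2041, and iRTE against CD4+CD8+ gave 2 in place of 4 and 1068 in place of 3367. With limma-voom, 1 receptor was called for Artificial CD8 against CD4+CD8+. Leaving out each library in turn gave 1 to 2 called receptors and 1316 to 1773 called genes in that comparison, the lowest without CD4+CD8+ replicate 1. No pairing of libraries by replicate number was seen: the 24 pairs with 1 number in different groups had correlations of their deviations between -0.0663 and 0.0587. With few libraries per group, and iRTE 1 to 3 apart from iRTE 4 and 5, these values cannot exclude a pairing. With the replicate block 6, 5, 8, 5, 2 and 4 receptors were called for iRTE against Artificial CD8, iRTE against splenic CD8, Artificial CD8 against splenic CD8, iRTE against CD4+CD8+, Artificial CD8 against CD4+CD8+ and CD4+CD8+ against splenic CD8, where the fit without it had 6, 5, 7, 4, 2 and 4. The block ended the calls of Tnfrsf9 in iRTE against splenic CD8 (1.14) and of Cd244 in iRTE against Artificial CD8 (3.26). Among the receptors it brought calls for Tnfrsf4 in iRTE against splenic CD8 (-2.05), Tnfrsf9 in Artificial CD8 against splenic CD8 (1.36) and Cd2 in iRTE against CD4+CD8+ (-0.48). Among pathway genes it brought calls for Nfkbia in iRTE against splenic CD8 (-1.03) and Tradd in Artificial CD8 against splenic CD8 (0.27). Of 756 alternative counts over the pathway lists, 41 moved by over 1.5 times, 35 of them in comparisons with CD4+CD8+, and the other 6 are given beside their lists above. Depth limits Tnfrsf4 most, with 0 to 70 counts per library. Tnfrsf4 failed the filter of 10 CPM and has no value there.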
